A study of Mus musculus with 12 samples.

Results

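Cortical neuron cultures that had lost Top1 were compared with cultures that had kept it while both carried topotecan, an inhibitor of the TOP1 enzyme. The question is which genes differ from the drug-treated control once the target of the drug is deleted and which stay at its level. The comparison uses 6 of the 12 RNA-seq libraries of the series, the 3 named Top1 cKO-Topot and the 3 named WT-Topot, chosen by their labels. Short genes that neuronal activity induces, led by Ptgs2 and Nr4a1, and 202 genes over 100 kb were among those called higher in Top1 cKO-Topot, while genes over 500 kb kept a median level below that of WT cultures without the drug. Cortical neurons were cultured from mouse embryos (strain C57BL6, given as C57BL6/J in the growth protocol) of stage E13.5-15.5 and infected at day in vitro (DIV) 3 with a lentivirus that expressed the fluorescent protein tdTomato from the CaMKIIα promoter (WT) or tdTomato plus CRE, which cuts out the part of Top1 flanked by loxP sites (Top1 cKO). The labels call the WT genotype wild type, while the study's methods describe both genotypes as Top1 fl/fl cultures that differ in the virus. Topotecan (300 nM in 0.003% DMSO) was given at DIV 15 and the cells were harvested 3 days later. The groups that received only 0.003% DMSO, WT-Veh and Top1 cKO-Veh with 3 libraries each, serve as background. The CaMKIIα promoter limits CRE to neurons and 85 to 90% of the cells were transduced, so each Top1 cKO culture also held cells with an intact gene.

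TOP1 is the nuclear topoisomerase that relaxes supercoiled DNA by nicking a strand, letting it turn and closing it again, and it works ahead of and behind transcribing RNA polymerase. Topotecan binds the enzyme while it is attached to the nicked DNA and holds it there as a cleavage complex, an obstacle to polymerases. Neurons depend on unusually long genes for cell adhesion and synapse proteins, and they transcribe a separate set of short genes, the immediate early genes and their effectors, within minutes of synaptic activity.

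The libraries held 2162811 to 3493909 counts in WT-Topot and 2250132 to 3099311 in Top1 cKO-Topot. Values are given in CPM (counts divided by the TMM-scaled library size, the usual normalised read count), always in the order of replicates 1, 2 and 3, and they are not corrected for transcript length, so levels are compared between groups and not between genes. All 16 neuronal markers were above 1 CPM, with a summed level of 10505 to 10945 CPM in WT-Topot and 10697 to 12565 CPM in Top1 cKO-Topot. The 10 astrocyte markers summed to 1187 to 1993 CPM in WT-Topot and 1758 to 3250 CPM in Top1 cKO-Topot, and 1 of them, Slc1a2, was called higher. The 10 microglia markers summed to 9.85 to 26.9 CPM and 3.50 to 10.3 CPM, and none was called in either direction by edgeR's quasi-likelihood test (4 were lower at an unadjusted p under 0.05, and none was called with the replicate block). The 10 markers of the oligodendrocyte lineage summed to 179 to 208 CPM against 175 to 330.1 CPM, the 12 interneuron markers to 610.2 to 1101 CPM against 961 to 1413 CPM, the 10 endothelial and mural markers to 9.73 to 17.4 CPM against 19.3 to 45.8 CPM, and the 12 proliferation markers to 35.2 to 47.1 CPM against 38.9 to 58.6 CPM. The other called markers were Rbfox3 and Snap25 (higher) and Slc17a7 (lower) of the neuronal markers, Calb2 (lower) and Gad2 (higher) of the interneuron markers and Rgs5 (higher) of the mural markers. The part that shifts in cell make-up had in the results below was not tested. In bulk RNA, fewer cells of a type and less RNA per cell cannot be told apart.

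Top1 transcripts were lower in every Top1 cKO-Topot library than in any WT-Topot library. Top1 (chr2:160471624-160548500, mm9, + strand) stood at 129, 139.7 and 130.2 CPM in WT-Topot and at 29.1, 37.5 and 28.4 CPM in Top1 cKO-Topot, a log2 fold change of −2.07 ± 0.20 (SE) with an adjusted p of 5.19e-07 (edgeR quasi-likelihood test, as for all adjusted p-values here unless another test is named). The level left was 23.5% of WT-Veh, beside 25.01% in Top1 cKO-Veh and 98.7% in WT-Topot. Of the 22 listed topoisomerases and genes that repair cleavage complexes, the other called member was Top1mt, the mitochondrial topoisomerase, at 9.38, 8.59 and 9.42 CPM in WT-Topot and 2.39, 2.32 and 0.874 CPM in Top1 cKO-Topot (log2 −2.24 ± 0.47 (SE), adjusted p 0.00431). This call was lost without Top1 cKO-Topot replicate 2 (adjusted p 0.0132), under DESeq2 (0.0117) and in a fit of all 12 libraries (0.0200). Top2b, the topoisomerase that cuts both strands in neurons, had a log2 fold change of −0.41 ± 0.20 (SE) and did not pass (adjusted p 0.386).

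Across 23893 genes, 350 were called higher (1.46%) and 246 lower (1.03%) in Top1 cKO-Topot than in WT-Topot at an FDR of 0.01. Of these, 349 and 246 had all 3 libraries of a group on the same side of the other group, which held for 13.4% and 14.2% of the 13700 expressed genes, those averaging 1 CPM or more. Libraries with the same replicate number deviated together, and with that number as a block 1100 genes were called higher (4.6%) and 976 lower (4.08%), including all 350 and 246. The counts rested in part on single libraries: 232 higher and 157 lower were called without Top1 cKO-Topot replicate 2, and 543 and 348 when Top1 cKO-Topot replicate 3 was omitted. The genes called higher were long, with a median genomic span of 130 kb and 57.9% over 100 kb, and the genes called lower were short, with a median of 16.6 kb and 8.62% over 100 kb. Among expressed genes the median was 24.2 kb and 15.0% were over 100 kb.

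The 10 largest rises were led by short genes that neuronal activity induces: Ptgs2, Nr4a1, Nptx2, Npas4, Arc, Egr4 and Fos, together with the lipase gene Lipg, Crhbp, which encodes a binding protein of corticotropin-releasing hormone, and a single very long gene, Nell1. In the 3 lists of activity-induced genes, 5 of 8 AP-1 factors, 8 of 12 factors of the Egr, Nr4a and Npas4 group and 15 of 31 effectors were called higher, and no member of the lists was called lower by edgeR (none at an unadjusted p under 0.05 and none by DESeq2). Among all expressed genes 2.55% were called higher, and among those of up to 10 kb 1.49%. The median spans of the lists were 5.35, 5.48 and 8.20 kb. With the replicate block, which called 4.6% of all genes higher, the list counts were 5, 10 and 22. When any 1 library was left out they ranged from 3 to 5, from 7 to 9 and from 14 to 17, the lowest AP-1 count coming without Top1 cKO-Topot replicate 1 or WT-Topot replicate 3. The counts were 2, 6 and 12 in the fit of 12 libraries and 2, 6 and 14 with filterByExpr, edgeR's filter on low counts. Median log2 fold changes of the lists were 0.87, 1.98 and 1.25, beside −0.02 over all expressed genes. These lists were written with earlier results of these data known, so their direction is not independent evidence.

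The promoters of 4 of these genes are shown because the members moved together and because the cyclic AMP response element is a textbook element of such promoters. Of the 51 members of these lists, 37 had an entry in the RefSeq promoter table (GRCm38.p6), and the 250 bases before the start were searched on both strands for the whole element TGACGTCA and for its shorter core TGACG, which the whole element contains. In the lines below, read 5′ to 3′ on the gene's strand, capitals mark this core, as TGACG or its reverse complement CGTCA.
Fos (chr12:85473640-85473889, + strand): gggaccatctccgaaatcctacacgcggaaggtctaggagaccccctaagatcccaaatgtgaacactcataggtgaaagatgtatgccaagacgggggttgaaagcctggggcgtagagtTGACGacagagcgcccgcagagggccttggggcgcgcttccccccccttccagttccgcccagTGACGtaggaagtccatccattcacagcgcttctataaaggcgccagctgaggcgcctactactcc
Nr4a1 (chr15:101266596-101266845, + strand): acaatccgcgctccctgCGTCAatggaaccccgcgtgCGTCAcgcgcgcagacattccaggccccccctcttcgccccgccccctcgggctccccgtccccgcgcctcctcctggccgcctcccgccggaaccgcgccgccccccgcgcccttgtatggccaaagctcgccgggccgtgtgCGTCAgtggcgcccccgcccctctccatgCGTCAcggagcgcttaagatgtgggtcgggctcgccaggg
Npas4 (chr19:4989972-4990221, − strand): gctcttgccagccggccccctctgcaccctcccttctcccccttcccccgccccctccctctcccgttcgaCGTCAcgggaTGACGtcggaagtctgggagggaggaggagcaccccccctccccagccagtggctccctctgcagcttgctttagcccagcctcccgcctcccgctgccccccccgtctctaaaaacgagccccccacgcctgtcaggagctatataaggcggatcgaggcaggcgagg
Egr4 (chr6:85513590-85513839, − strand): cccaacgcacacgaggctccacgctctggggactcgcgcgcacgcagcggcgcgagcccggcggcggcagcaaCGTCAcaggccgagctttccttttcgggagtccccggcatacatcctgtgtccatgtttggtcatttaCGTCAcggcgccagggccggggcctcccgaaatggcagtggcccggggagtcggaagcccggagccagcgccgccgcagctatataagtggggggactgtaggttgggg
Fos, Npas4 and Egr4 held 2 matches each and Nr4a1 held 4. The core TGACG was found in 23 of the 37 members (62.2%), against 19.8% of 27025 genes with an entry and 17.8% of 32851 promoters of the same length. The whole element was found in 3 of 37 (8.11%) against 1.77% of genes, and the CArG box, the site of serum response factor, in 3 of 37 (8.11%) against 1.62%. The AP-1 site, TGACTCA or TGAGTCA, was found in 0 of 37 against 5.16% of genes. These are counts of letters in a window and do not show binding.

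Nr4a1, which encodes an orphan nuclear receptor, stood at 8.04, 5.15 and 13.7 CPM in WT-Topot and 172, 103 and 140.3 CPM in Top1 cKO-Topot. The Top1 cKO-Topot libraries lay within or above the range of WT-Veh (108, 108 and 54.1 CPM), and the WT-Topot libraries lay below it. The log2 fold change was 3.99 ± 0.28 (SE) (adjusted p 8.06e-09). Ptgs2, the inducible cyclooxygenase, was nearly absent from WT-Topot at 1.68, 0.859 and 2.14 CPM and reached 47.8, 19.9 and 26.7 CPM in Top1 cKO-Topot (log2 4.35 ± 0.43 (SE), adjusted p 9.30e-07). Npas4, a neuron-specific transcription factor that answers calcium entry, stood at 2.68, 1.14 and 6.85 CPM and 37.04, 21.3 and 31.9 CPM (log2 3.15 ± 0.42 (SE), adjusted p 3.88e-05). The groups did not overlap for any of these genes. Egr4, a zinc finger factor, rose from 18.4, 10.3 and 11.99 CPM to 116, 80.7 and 82.6 CPM (log2 2.77 ± 0.25 (SE), adjusted p 3.15e-07). Its relatives Egr1 and Egr3 rose by log2 2.12 and 2.07 (adjusted p 1.80e-06 and 1.37e-05).

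Among the AP-1 factors, Fos stood at 13.4, 12.02 and 7.28 CPM in WT-Topot and 86.04, 53.1 and 64.7 CPM in Top1 cKO-Topot (log2 2.61 ± 0.26 (SE), adjusted p 1.03e-06), and Junb rose by log2 1.48 ± 0.21 (SE) (adjusted p 6.27e-05). Fosl2 was also called. Fosb (log2 2.10) lost its call without Top1 cKO-Topot replicate 1 (adjusted p 0.0953), the library in which it was highest, at 28.7, 8.97 and 9.62 CPM. Jund (log2 0.89) lost its call without Top1 cKO-Topot replicate 2, WT-Topot replicate 2 or WT-Topot replicate 3 (adjusted p 0.0210, 0.0125 and 0.0214). Both calls were also lost in the fit of 12 libraries (0.129 and 0.0196) and with filterByExpr (0.0236 and 0.0205).

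The effectors named by the rule encode mostly secreted and synaptic proteins. Vgf, which encodes a secreted neuropeptide precursor, stood at 201, 188 and 136 CPM in WT-Topot and 953, 739 and 855 CPM in Top1 cKO-Topot (log2 2.27 ± 0.17 (SE), adjusted p 1.74e-08). Bdnf, the brain-derived neurotrophic factor, rose from 31.2, 30.6 and 18.8 CPM to 180.0, 129 and 177 CPM (log2 2.57 ± 0.22 (SE), adjusted p 1.03e-07). In WT-Veh, Vgf stood at 1073, 2137 and 798 CPM and Bdnf at 195, 453 and 199 CPM, above WT-Topot in every library. Nptx2, a pentraxin that clusters AMPA receptors, stood at 28.1, 14.03 and 37.3 CPM against 290.4, 129 and 319 CPM (log2 3.23 ± 0.30 (SE), adjusted p 5.19e-07). Arc, which drives AMPA receptor endocytosis, stood at 34.2, 12.02 and 27.4 CPM against 244, 90.99 and 177 CPM (log2 2.80 ± 0.31 (SE), adjusted p 4.85e-06). Replicate 2 was the lowest of its group in both genotypes for Nptx2 and Arc, and even so the groups did not overlap. Crhbp (log2 2.62, adjusted p 0.00404) lost its call without Top1 cKO-Topot replicate 3 (adjusted p 0.0480), and Sorcs3, a sorting receptor of 599 kb (log2 1.57), lost it without Top1 cKO-Topot replicate 2 (0.0434). Both were also lost with 12 libraries (0.0282 and 0.0548) and with filterByExpr (0.0203 and 0.0102).

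**Figure D1:**
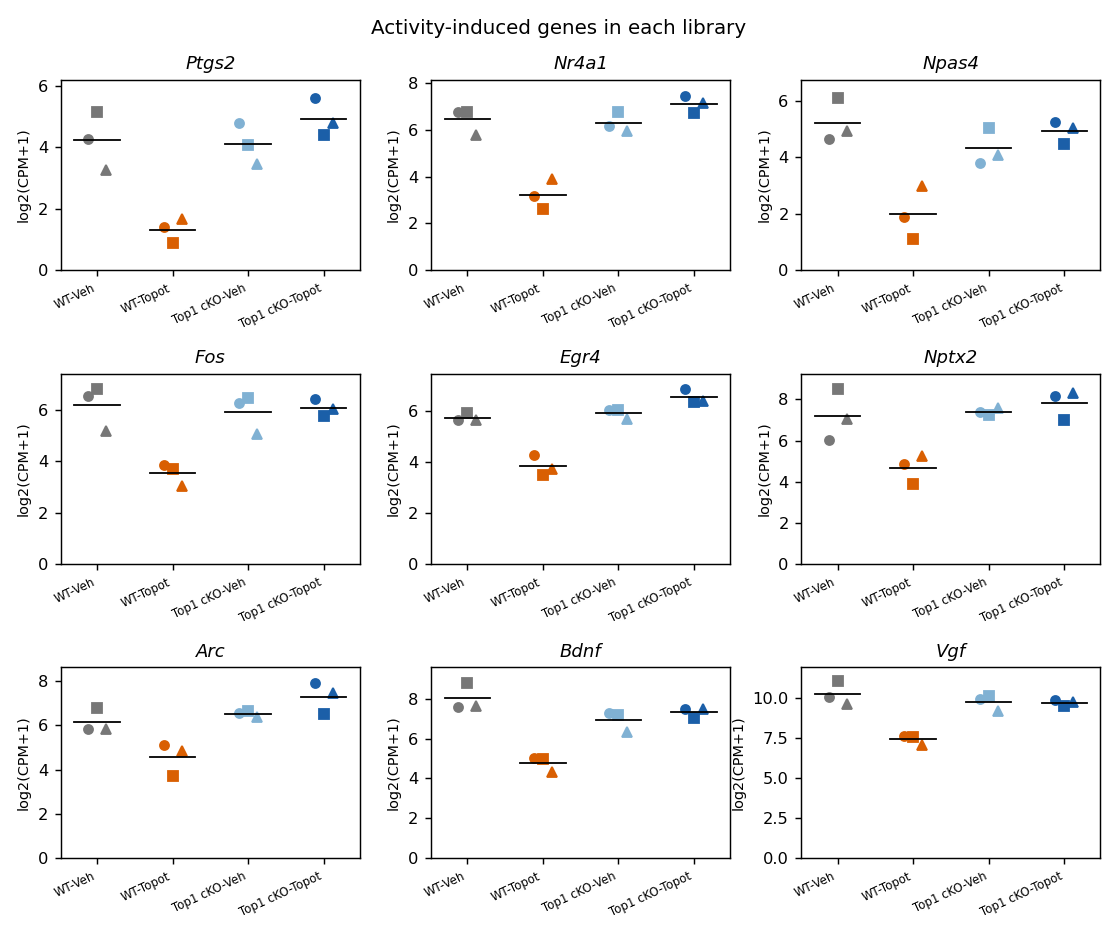
Level of 9 activity-induced genes in each library as log2(CPM+1), with a panel per gene, groups on the horizontal axis, circles, squares and triangles for replicates 1, 2 and 3 and a line at the group mean. In each panel the 3 WT-Topot points lie below all Top1 cKO-Topot points.

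The level of long genes relative to short genes was higher in every Top1 cKO-Topot library than in any WT-Topot library. For each library this was measured as the long gene shift, in which the median log2(CPM+1) of shorter genes (11332 genes) was subtracted from that of 2021 genes over 100 kb, among expressed genes. It was −0.15, 0.20 and −0.05 in WT-Topot and 0.43, 0.61 and 0.30 in Top1 cKO-Topot, so the groups did not overlap. The means were −0.0023 ± 0.18 and 0.44 ± 0.16 (SD, n = 3), a difference of 0.45 with p = 0.1 in a two-sided exact permutation test, which cannot go lower with 3 against 3. Within replicate numbers the difference was 0.34 to 0.58. The background was 0.71 ± 0.13 in WT-Veh and 0.60 ± 0.22 in Top1 cKO-Veh (SD, n = 3).

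**Figure D2:**
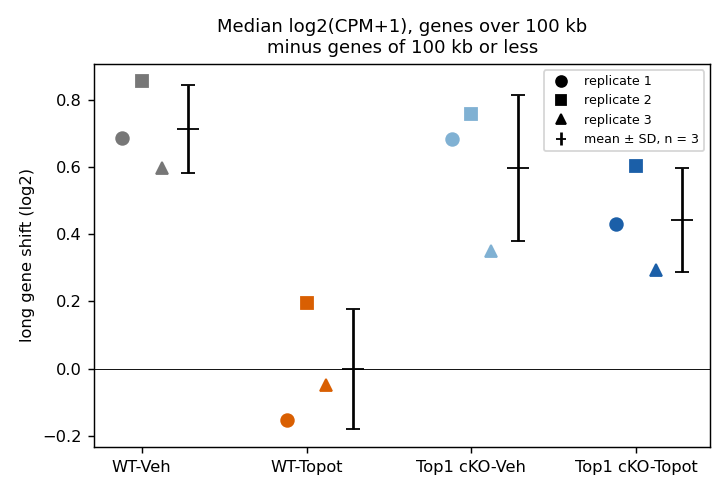
Long gene shift of each library on the log2 scale, with the 4 groups on the horizontal axis, a marker per replicate and the mean ± SD of 3 libraries in black. The 3 WT-Topot libraries lie between −0.15 and 0.20 and the 3 Top1 cKO-Topot libraries between 0.30 and 0.61.

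The difference grew with gene span. The median log2 fold change of Top1 cKO-Topot against WT-Topot was −0.06, −0.08 and −0.08 for genes of up to 10, 10 to 25 and 25 to 50 kb, and 0.02 for genes of 50 to 100 kb. It was 0.19 for 1189 genes of 100 to 200 kb, 0.45 for 642 genes of 200 to 500 kb and 0.62 for 174 genes over 500 kb. Of those 174 genes, 31 were called higher (17.8%, beside 2.55% of all expressed genes called higher and 1.8% lower), or 57 with the replicate block, which also called 6 lower. Against WT-Veh the same 174 genes had a median of −2.10 in WT-Topot, −1.17 in Top1 cKO-Topot and −0.55 in Top1 cKO-Veh. These 3 values share the WT-Veh libraries and are given side by side only.

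**Figure D3:**
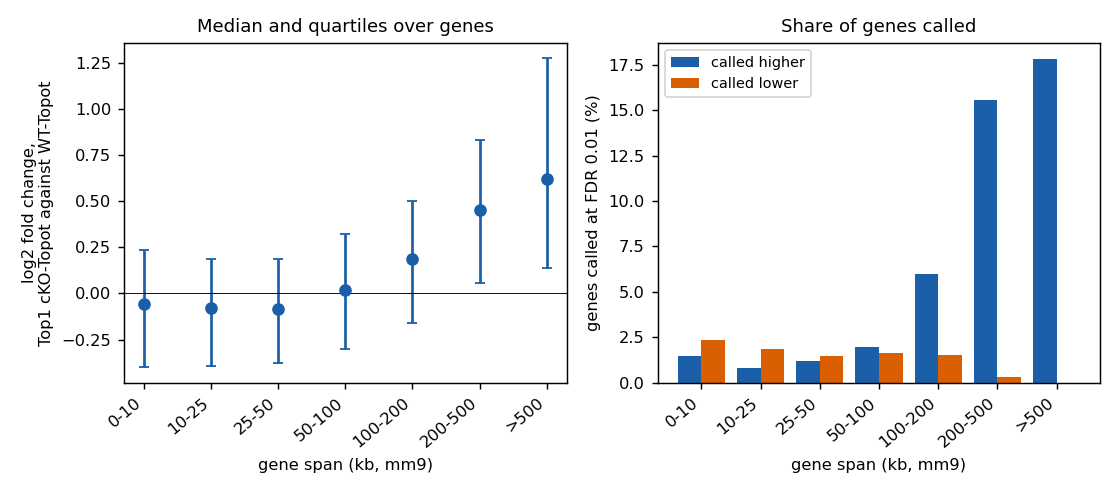
Left, median and quartiles of the log2 fold change of Top1 cKO-Topot against WT-Topot over genes in 7 bins of genomic span (kb). Right, the share of each bin called higher or lower at an FDR of 0.01 (%), which reached 17.8% higher for genes over 500 kb.

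Which genes deletion protected was read from calls in 3 pairs of groups that share libraries, so the following are counts and not tests. In WT-Topot 488 genes were lower than in WT-Veh (2.04%). Of these, 149 were protected, meaning higher in Top1 cKO-Topot than in WT-Topot and not called lower than WT-Veh, and 15 were partly protected, meaning higher than WT-Topot yet still lower than WT-Veh (289 genes, or 1.21%, were lower in Top1 cKO-Topot than in WT-Veh). Another 163 stayed low, being called lower than WT-Veh and not called higher than WT-Topot, and 161 were undecided. With the replicate block on all pairs, 1195 genes lay below WT-Veh in WT-Topot (5%) and 961 did so in Top1 cKO-Topot (4.02%), and of the 1195 380 were protected, 111 partly protected, 408 stayed low and 296 were undecided. Leaving out 1 library moved the partly protected count to 7 and 30 (Top1 cKO-Topot replicates 2 and 3), 26 (WT-Topot replicate 2) and 27 and 33 (WT-Veh replicates 1 and 3). Without WT-Veh replicate 3, 291 genes stayed low and 253 were undecided.

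The classes differed in span and in their median level with deletion alone. Protected genes had a median span of 264 kb and 34 of 149 spanned at most 50 kb, among them Nr4a1, Npas4, Fos and Vgf. Of genes with a known span, 28 of 161 that stayed low, 37 of 157 undecided and 0 of 15 partly protected were that short. The median span of all expressed genes was 24.2 kb. The median level of protected genes relative to WT-Veh was 33.0% in WT-Topot, 80.1% in Top1 cKO-Topot and 83.1% in Top1 cKO-Veh. The 15 partly protected genes had the largest median span of the 4 classes, 755 kb, and went from 12.7% in WT-Topot to 34.7% in Top1 cKO-Topot, beside 58.0% in Top1 cKO-Veh. Genes that stayed low had a median span of 447 kb, with 24.3% and 26.9% in WT-Topot and Top1 cKO-Topot. They stood at 48.9% in Top1 cKO-Veh, and all 163 had a negative log2 fold change there against WT-Veh. So did all 15 partly protected genes and 147 of 161 undecided genes. The median of this fold change was −0.27 for protected genes, and 49.9% of expressed genes had a positive value. All 4 classes were chosen for a low level against the same WT-Veh libraries, so negative values there are partly built in. Within the Top1 cKO genotype, the median log2 fold change of topotecan against vehicle was −0.07 for protected genes. It was −0.82 for genes that stayed low. Both classes were chosen in part for their level in the Top1 cKO-Topot libraries, so a difference in this direction is partly built in. Between Top1 cKO-Topot and Top1 cKO-Veh 2 genes of all were called lower, or 415 with the replicate block (1.74%), of which 100 were in the class that stayed low.

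**Figure D4:**
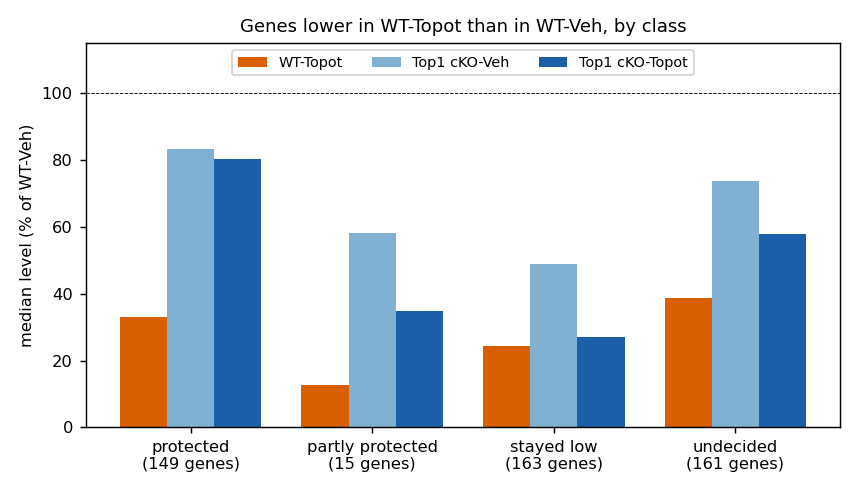
Median level, as a percentage of WT-Veh, of the 4 classes of genes that were lower in WT-Topot than in WT-Veh, in the 3 other groups; the dashed line is WT-Veh. Protected genes rise from 33.0% to 80.1%, and genes that stayed low stand at 24.3% and 26.9%. The classes were defined by calls on WT-Veh, WT-Topot and Top1 cKO-Topot.

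The partly protected genes included adhesion molecules and a channel. Ctnna2, the neuronal α-catenin (1098 kb), stood at 4.69, 11.4 and 12.4 CPM in WT-Topot, 43.8, 56.1 and 73.4 CPM in Top1 cKO-Topot and 193, 153 and 251 CPM in WT-Veh. It rose by log2 2.60 ± 0.30 (SE) (adjusted p 7.36e-06) and remained 29.00% of WT-Veh. Dscam, a homophilic adhesion molecule (579 kb), stood at 6.70, 10.6 and 5.57 CPM against 30.3, 39.5 and 33.2 CPM (log2 2.14 ± 0.30 (SE), adjusted p 5.79e-05). Nell1, a secreted glycoprotein gene (890.4 kb), stood at 1.01, 1.14 and 0.856 CPM against 6.37, 10.3 and 14.4 CPM (log2 3.28 ± 0.52 (SE), adjusted p 2.49e-04). Its WT-Topot values lie near the limit of 3 counts, about 1 CPM, so the size of its rise is imprecise. None of these genes had overlapping groups, and all stayed below every WT-Veh library. Kcnma1, the BK potassium channel (505 kb), rose by log2 2.07 ± 0.32 (SE) to 27.03% of WT-Veh, and Nrxn3, a presynaptic neurexin (1612 kb), by log2 1.30 ± 0.24 (SE) to 20.9% (adjusted p 1.87e-04 and 0.00110). Dcc, the netrin receptor (1092 kb), rose by log2 2.03 (adjusted p 0.00430), a call lost without Top1 cKO-Topot replicate 2 (0.0466) and also with 12 libraries (0.0117) and filterByExpr (0.0228).

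Among the genes that stayed low, Cntnap2, a neurexin-like adhesion molecule and at 2241 kb the longest named here, stood at 10.8, 14.5 and 7.49 CPM in WT-Veh, 0, 0 and 0.428 CPM in WT-Topot and 0.797, 0.996 and 1.31 CPM in Top1 cKO-Topot. The treated groups held 1 and 8 counts in all, a ratio of WT-Topot to Top1 cKO-Topot of 0.111 with a 95% exact interval of 0.00250 to 0.826 that covers counting error only. Its adjusted p was 0.308. Nrg3, a neuregulin that binds ErbB4 (1104 kb), stood at 2.01, 7.73 and 4.28 CPM against 11.6, 13.3 and 15.7 CPM, with no overlap, and missed the threshold (log2 1.49 ± 0.41 (SE), adjusted p 0.0307), passing it with the replicate block (3.33e-04) and without WT-Topot replicate 2 (0.00201). Cdh13, a cadherin without a transmembrane domain (1041 kb), lay at the edge of the class: 1.68, 10.6 and 2.57 CPM against 17.5, 25.6 and 14.9 CPM, log2 1.90 ± 0.44 (SE), adjusted p 0.0101, and 8.47e-07 with the block. Galntl6 (1134 kb), a glycosyltransferase gene, stood at 0, 2.004 and 2.14 CPM and 2.79, 3.99 and 0.874 CPM with overlapping groups. The transcript 4930539N22Rik was at 0 in WT-Topot and had 2 counts in Top1 cKO-Topot, both under the limit of 3 counts, so no fold is given. A further transcript named by the same rule, 1700010K23Rik, stood at 0.335, 1.14 and 0.856 CPM and 1.19, 3.99 and 1.31 CPM against 18.7, 19.3 and 17.3 CPM in WT-Veh.

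**Figure D5:**
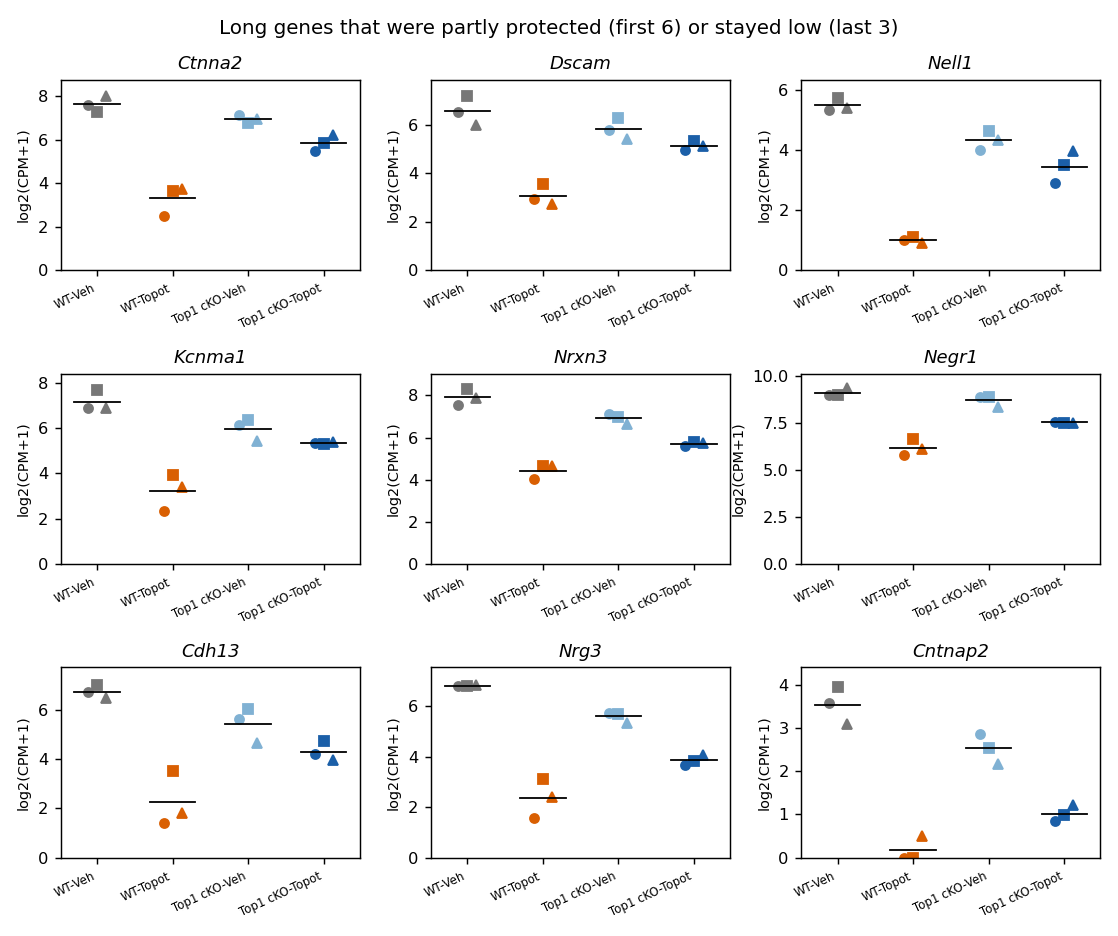
Level of 9 long genes in each library as log2(CPM+1), drawn as for the activity-induced genes; the first 6 panels are partly protected genes and the last 3 stayed low. In the first 6 panels Top1 cKO-Topot lies between WT-Topot and the vehicle groups, and in the Cntnap2 panel it reaches 1.31 CPM at most.

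Genes of the synapse and of axon pathfinding were called in both directions. Of 81 adhesion molecules and synapse organisers, 9 were called higher and 2 lower (22 and 4 with the replicate block), with a median log2 fold change of 0.26. The expressed members of this list had a median span of 299 kb. Expressed genes of 200 to 500 kb had a median log2 fold change of 0.45, with 15.6% called higher and 0.312% lower. Among all expressed genes 2.55% were called higher and 1.8% lower. The count of higher members was 5 without Top1 cKO-Topot replicate 2 and 14 when Top1 cKO-Topot replicate 3 was omitted, and that of lower members was 1 without Top1 cKO-Topot replicate 1 and with filterByExpr. Negr1, a GPI-anchored adhesion molecule, rose from 55.3, 100.5 and 67.7 CPM to 190.4, 184 and 184 CPM (log2 1.31 ± 0.20 (SE), adjusted p 1.52e-04). Lrrtm1, a short postsynaptic organiser (15.1 kb), went the other way, from 329, 301 and 284 CPM to 151, 160.1 and 110.2 CPM (log2 −1.12 ± 0.18 (SE), adjusted p 2.29e-04). The other member called lower was Flrt3, which binds latrophilins.

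Of 61 axon guidance genes, 7 were called higher and 5 lower (12 and 7 with the replicate block), with a median of 0.08. The median span of the list lay between 100 and 200 kb. Expressed genes of 100 to 200 kb had a median log2 fold change of 0.19, with 5.97% called higher and 1.51% lower. The count of higher members was 4 without Top1 cKO-Topot replicate 2 and in the fit of 12 libraries, and that of lower members 3 without that replicate and with filterByExpr. Sema5a, a semaphorin of 452 kb, rose from 13.4, 22.04 and 22.3 CPM to 66.5, 89.3 and 90.1 CPM (log2 2.09 ± 0.24 (SE), adjusted p 5.39e-06). Ephb1, an ephrin receptor of 433 kb, rose from 8.38, 6.30 and 8.56 CPM to 31.9, 26.9 and 30.2 CPM (log2 1.93 ± 0.29 (SE), adjusted p 1.47e-04), close to its 34.8, 21.5 and 35.1 CPM in WT-Veh. Both falling members named by the rule were short: Sema4g (14.3 kb) stood at 103, 69.8 and 68.1 CPM against 25.5, 27.6 and 19.7 CPM (log2 −1.72 ± 0.23 (SE), adjusted p 3.88e-05). Efnb3, an ephrin ligand of 6.11 kb, fell from 361, 411 and 295 CPM to 141, 171 and 107 CPM (log2 −1.35 ± 0.19 (SE), adjusted p 5.70e-05).

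Of 25 glutamate receptor genes, 3 were called higher and 1 lower (8 and 1 with the replicate block), with a median log2 fold change of 0.52. Expressed members had a median span of 319 kb, beside a median of 0.45 and 15.6% called higher for expressed genes of 200 to 500 kb. Gria1, an AMPA receptor subunit, rose from 118, 200.1 and 146 CPM to 302, 342 and 379 CPM (log2 1.13 ± 0.18 (SE), adjusted p 3.67e-04), and Grid1, a delta receptor of 764 kb, by log2 2.03 ± 0.35 (SE) (adjusted p 6.96e-04). Gria3 (log2 0.96) lost its call without Top1 cKO-Topot replicate 2, WT-Topot replicate 1 or WT-Topot replicate 3 (adjusted p 0.0422, 0.0305 and 0.0108). Grm2, a presynaptic metabotropic receptor of 11.6 kb, was lower at 14.7, 14.3 and 10.5 CPM against 48.3, 28.1 and 26.98 CPM (log2 −1.38), a call lost without Top1 cKO-Topot replicate 2 or WT-Topot replicate 1 (adjusted p 0.0149 and 0.0367). With filterByExpr the Gria3 and Grm2 calls were lost too (0.0195 and 0.0131), and with 12 libraries that of Gria3 (0.0300). The count of higher members was 2 to 5 when a library was left out, being 5 when Top1 cKO-Topot replicate 3 was omitted and 2 when Top1 cKO-Topot replicate 2 or WT-Topot replicate 1 was.

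Gabbr2, a GABA-B receptor subunit, missed the threshold without the block (log2 1.03 ± 0.27 (SE), adjusted p 0.0222) and passed it with the block (8.28e-07).

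Among 55 voltage-gated channel genes, 10 were called higher (23 with the replicate block, and 3 lower), with a median log2 fold change of 0.37. Their median span was 130 kb, beside a median of 0.19 and 5.97% called higher for expressed genes of 100 to 200 kb. The count of higher members was 6 with filterByExpr, 4 without Top1 cKO-Topot replicate 2, 17 without Top1 cKO-Topot replicate 3 and 18 without WT-Topot replicate 2. Scn1a, a sodium channel, stood at 86.1, 76.99 and 147 CPM in WT-Topot and 239, 224 and 345 CPM in Top1 cKO-Topot (log2 1.38 ± 0.22 (SE), adjusted p 3.00e-04), with all 3 Top1 cKO-Topot libraries above every WT-Topot library. Kcnip3, a calcium sensor that binds Kv4 channels, rose from 67.4, 71.3 and 69.8 CPM to 200.4, 157 and 179.7 CPM (log2 1.36 ± 0.18 (SE), adjusted p 3.12e-05). Cacna1e, an R-type calcium channel (log2 1.20, adjusted p 0.00100), lost its call without Top1 cKO-Topot replicate 2 (0.0111).

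In the vesicle release machinery, 6 of 40 genes were called higher and 1 lower (17 and 2 with the replicate block), with a median of 0.19. Their median span was 66.5 kb, and expressed genes of 50 to 100 kb had a median of 0.02, with 1.95% called higher and 1.63% lower. The higher count was 3 without Top1 cKO-Topot replicate 2, and the lower count 2 without Top1 cKO-Topot replicate 3. Snap25, a SNARE protein of the plasma membrane, rose from 747, 1006 and 1089 CPM to 1663, 1765 and 2519.8 CPM (log2 1.059 ± 0.17 (SE), adjusted p 2.52e-04). Vamp1, the vesicular SNARE partner, rose from 60.3, 76.1 and 73.2 CPM to 189, 162 and 224 CPM (log2 1.45 ± 0.18 (SE), adjusted p 2.35e-05) and was also called higher than WT-Veh (log2 1.705 ± 0.25 (SE)). Slc17a7, the vesicular glutamate transporter of excitatory neurons, was lower at 845, 763 and 771 CPM against 1499.6, 1429 and 1197 CPM (log2 −0.80 ± 0.14 (SE), adjusted p 9.19e-04). Of 23 postsynaptic scaffold genes, 3 were called higher (9 with the replicate block), namely Dlgap2, Magi1 and Shank2. The 23 genes had a median span of 151 kb, and 5.97% of expressed genes of 100 to 200 kb were called higher. The count was 1 without Top1 cKO-Topot replicate 2, WT-Topot replicate 1 or WT-Topot replicate 3 and in the fit of 12 libraries. Dlgap2 (752 kb) stood at 8.38, 13.7 and 7.28 CPM against 26.3, 25.6 and 34.5 CPM (log2 1.52 ± 0.30 (SE), adjusted p 0.00226). Its call was lost with 12 libraries (0.0107), as was that of Shank2 (0.0358, and 0.0151 with filterByExpr).

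Genes of the amino acid response, which the transcription factor ATF4 controls when amino acids are short, were low in both topotecan groups. Of 35 listed genes, 15 were called lower in WT-Topot and 17 lower in Top1 cKO-Topot than in WT-Veh, with median log2 fold changes of −1.001 and −1.22. Over all genes, 2.04% and 1.21% were called lower in these pairs. Top1 cKO-Veh had a median of −1.16, and these 3 medians share the WT-Veh libraries. Between Top1 cKO-Topot and WT-Topot the median was −0.19, with 1 member called higher and 1 lower (1 and 4 with the replicate block). Among expressed genes 2.55% were called higher and 1.8% lower, so 1 of 35 is near that share. Leaving out Top1 cKO-Topot replicate 1 or WT-Topot replicate 3 gave 2 lower. The list was drawn up with earlier results of these data known.

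The member called higher was Atf4 itself, at 153, 189 and 146 CPM in WT-Topot and 358, 255 and 363 CPM in Top1 cKO-Topot (log2 0.99 ± 0.18 (SE), adjusted p 9.07e-04). The member called lower was Slc7a3, a transporter of cationic amino acids. It stood at 61.1, 61.8 and 85.8 CPM in WT-Veh, 33.8, 24.3 and 13.7 CPM in WT-Topot, 7.82, 5.50 and 2.51 CPM in Top1 cKO-Veh and 3.58, 2.66 and 6.12 CPM in Top1 cKO-Topot (log2 −2.57 ± 0.39 (SE) against WT-Topot, adjusted p 1.62e-04), and it was the only gene lower both in WT-Topot than in WT-Veh and in Top1 cKO-Topot than in WT-Topot. Shmt2, a mitochondrial enzyme of serine and glycine metabolism whose exons overlap those of Ndufa4l2 so that reads could be shared, stood at 20.4, 21.5 and 16.3 CPM and 11.6, 7.97 and 10.5 CPM (log2 −0.97 ± 0.30 (SE)), which did not pass (adjusted p 0.0649) but did with the replicate block (0.00394).

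A pair of promoters of this list is shown for the core of the C/EBP-ATF response element, with Asns and Chac1 chosen after their values were seen. Asns, which encodes asparagine synthetase, stood at 120.0, 107 and 100.2 CPM in WT-Topot and 129, 73.1 and 102 CPM in Top1 cKO-Topot, beside 269, 281 and 274 CPM in WT-Veh. Chac1, which degrades glutathione, stood at 7.37, 17.5 and 12.4 CPM and 13.1, 7.31 and 16.6 CPM, beside 59.1, 61.8 and 65.1 CPM. Capitals mark TGATGAAA in Asns and TTGCATCA in Chac1 (RefSeq, GRCm38.p6, 250 bases before the start).
Asns (chr6:7693210-7693459, − strand): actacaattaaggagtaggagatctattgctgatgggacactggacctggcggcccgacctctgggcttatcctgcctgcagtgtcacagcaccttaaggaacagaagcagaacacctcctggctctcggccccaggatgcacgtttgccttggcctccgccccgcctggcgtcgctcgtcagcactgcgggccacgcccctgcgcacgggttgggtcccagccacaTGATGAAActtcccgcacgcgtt
Chac1 (chr2:119350992-119351241, + strand): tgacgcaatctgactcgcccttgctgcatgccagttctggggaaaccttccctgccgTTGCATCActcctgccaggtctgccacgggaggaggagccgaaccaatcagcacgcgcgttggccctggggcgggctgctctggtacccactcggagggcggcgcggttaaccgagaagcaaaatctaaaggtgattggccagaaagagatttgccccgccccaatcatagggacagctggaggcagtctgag
Any of TGATGCAA, TGATGAAA and their reverse complements was present in 8 of 28 members with an entry (28.6%), against 1.88% of all genes. The core TGACG of the preceding lists was present in 10 of these 28 (35.7%).

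Several of the genes that were lower in Top1 cKO-Topot were ones that topotecan had raised in WT cells. Sec14l3, of the lipid-binding Sec14 family, stood at 2.05, 4.38 and 4.61 CPM in WT-Veh, 15.8, 19.7 and 15.4 CPM in WT-Topot and 0.797, 2.32 and 0.874 CPM in Top1 cKO-Topot (log2 −3.58 ± 0.45 (SE) against WT-Topot, adjusted p 2.19e-05). Ccdc74a, a coiled-coil gene, followed the same course at 7.02, 5.26 and 6.34, then 28.5, 25.8 and 26.98, then 3.98, 7.64 and 3.93 CPM (log2 −2.35 ± 0.33 (SE), adjusted p 6.11e-05). Cdhr1, a photoreceptor cadherin gene, stood at 50.9, 50.1 and 58.2 CPM in WT-Topot and 11.6, 18.6 and 15.3 CPM in Top1 cKO-Topot (log2 −1.80 ± 0.24 (SE), adjusted p 4.95e-05). In each case the 3 Top1 cKO-Topot libraries were below all 3 WT-Topot libraries. Of the 163 genes higher in WT-Topot than in WT-Veh (0.682%), 48 were lower in Top1 cKO-Topot than in WT-Topot and not called higher than WT-Veh, 27 stayed raised and 88 were undecided, by a sorting that was added after the data were seen. The 48 had a median span of 11.04 kb and stood at a median of 274% of WT-Veh in WT-Topot and 101% in Top1 cKO-Topot. Both levels follow in part from how the 48 were chosen.

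Other large falls included genes that were not called between WT-Topot and WT-Veh, Iyd, Itgb3 and Slc5a5. Iyd, the iodotyrosine deiodinase, had 1 count in all of Top1 cKO-Topot and 54 in WT-Topot (5.36, 7.44 and 5.14 CPM), a ratio of 47.9 with a 95% exact interval of 8.23 to 1925. Itgb3, the β3 integrin, stood at 10.1, 8.87 and 8.14 CPM against 0.797, 0.996 and 1.75 CPM (log2 −2.92 ± 0.50 (SE), adjusted p 7.10e-04), and Slc5a5, the sodium-iodide symporter, at 10.4, 5.44 and 5.14 CPM against 1.19, 0.332 and 1.75 CPM (log2 −2.70). The Slc5a5 call was lost without Top1 cKO-Topot replicate 2 or WT-Topot replicate 1 (adjusted p 0.0434 and 0.0312). These genes were also called lower than WT-Veh, by log2 −4.96, −3.65 and −3.20. Smco3 fell by log2 −3.28 ± 0.45 (SE) and Fam184b by log2 −2.87 ± 0.41 (SE), but their exons overlap those of BC049715 and 9630001P10Rik, so reads could be shared. The transcript 1700001L19Rik fell by log2 −2.68 ± 0.45 (SE). Trpa1 had 3 counts in Top1 cKO-Topot and 44 in WT-Topot, a ratio of 12.996 (95% exact interval 4.17 to 65.4), with its call lost without Top1 cKO-Topot replicate 2 or WT-Topot replicate 1 (adjusted p 0.0347 and 0.0508). The keratin gene Krt77 and the lactate dehydrogenase gene Ldhd, whose exons overlap those of Znrf1, lost theirs without Top1 cKO-Topot replicate 2 (adjusted p 0.0191 and 0.0203). In the fit of 12 libraries the calls of Slc5a5, Trpa1 and Ldhd were lost (0.0132, 0.0358 and 0.0105), under DESeq2 those of Slc5a5, Trpa1 and Krt77 (0.0195, 0.0240 and 0.0119) and with filterByExpr that of Slc5a5 (0.0141).

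Some changes went past both controls. In Top1 cKO-Topot 36 genes were higher, and 47 lower, than both WT-Topot and WT-Veh, where 113 genes (0.473%) were called higher than WT-Veh in all. Of 23 p53 target genes, 3 were called higher than WT-Topot (9 with the replicate block, and 1 lower), with a median log2 fold change of 0.42. Among all expressed genes 2.55% were called higher and 1.8% lower, with a median of −0.02. The block called 4.6% of all genes higher and 4.08% lower. Btg2, an antiproliferative gene, stood at 46.6, 46.4 and 32.97 CPM in WT-Topot and 87.6, 70.4 and 124 CPM in Top1 cKO-Topot (log2 1.15 ± 0.22 (SE), adjusted p 0.00196) and was among the 36 (log2 1.46 ± 0.24 (SE) against WT-Veh). Cdkn1a, the cell cycle inhibitor p21, stood at 305, 219 and 179 CPM against 659, 346 and 510.2 CPM (log2 1.10 ± 0.21 (SE), adjusted p 0.00164), with a log2 fold change of 1.17 ± 0.26 (SE) against WT-Veh (adjusted p 0.0109). Zmat3 (log2 0.75) lost its call without any of 4 libraries, Top1 cKO-Topot replicates 1 and 2 and WT-Topot replicates 1 and 3 (adjusted p 0.0143, 0.0455, 0.0103 and 0.0226). The count of higher members was 0 with filterByExpr and 1 in the fit of 12 libraries. The Btg2 call was lost with filterByExpr (adjusted p 0.0103), and the Cdkn1a and Zmat3 calls were lost with it (0.0144 and 0.0125) and with 12 libraries (0.0272 and 0.0180). Leaving out a library gave 2 to 5 members called higher, the highest when Top1 cKO-Topot replicate 3 was omitted and the lowest when Top1 cKO-Topot replicate 1 or WT-Topot replicate 3 was.

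The 3 remaining functional lists held 1 called member each. Of 15 genes of the imprinted Ube3a region in the table, Ndn, a growth suppressor of neurons, was called higher (log2 0.76, adjusted p 0.00554), a call lost without WT-Topot replicate 2 (0.0107). Ube3a, an E3 ubiquitin ligase gene, stood at 203, 365 and 315 CPM in WT-Topot and 206, 246 and 194 CPM in Top1 cKO-Topot with overlapping groups (log2 −0.45 ± 0.19 (SE), adjusted p 0.229, and 0.00565 with the replicate block). Of 23 cholesterol synthesis genes, Tm7sf2, a sterol reductase gene, was called lower (log2 −2.02), a call lost without Top1 cKO-Topot replicate 2 (adjusted p 0.0210). Of 22 interferon and antigen presentation genes, Irf9, a factor of the interferon response whose exons overlap those of Rnf31, was called lower (log2 −1.60), a call lost without Top1 cKO-Topot replicate 2 or WT-Topot replicate 3 (adjusted p 0.0487 and 0.0184). With filterByExpr and with 12 libraries none of the 3 lists had a called member, the adjusted p being 0.0176 and 0.0291 for Ndn, 0.0145 and 0.0174 for Tm7sf2 and 0.0212 and 0.0299 for Irf9.

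Whether the effect of deletion depends on the drug was tested as the interaction of genotype and drug on all 12 libraries. The deletion effect was higher with topotecan than with vehicle for 95 genes (0.398%) and lower for 9 (0.0377%), or 583 (2.44%) and 365 (1.53%) with the replicate block. Leaving out 1 library moved the higher count to 48 (WT-Topot replicate 1), 50 (WT-Topot replicate 3 and Top1 cKO-Topot replicate 1), 51 (WT-Veh replicate 2) and 63 (Top1 cKO-Veh replicate 2). It moved the lower count to 24 (Top1 cKO-Topot replicate 2), 20, 17 and 5 (WT-Veh replicates 3, 1 and 2), 14 and 2 (Top1 cKO-Veh replicates 1 and 2), 4 and 3 (Top1 cKO-Topot replicates 3 and 1) and 3 and 2 (WT-Topot replicates 1 and 3). Of the 95 genes, 76 were also called higher than WT-Topot, beside 2.55% of expressed genes. This overlap follows in part from the design, since the interaction contains the same difference from the same libraries. Of 94 with a known span, 67 were over 100 kb, beside 15.0% of expressed genes. The largest interactions were those of Ptgs2 at log2 4.58 ± 0.70 (SE), Nell1 at 4.46 ± 0.51 (SE), Nr4a1 at 4.17 ± 0.45 (SE) and Npas4 at 4.11 ± 0.67 (SE). With vehicle the deletion called 11 genes higher (0.046%) and 30 lower (0.126%). With the replicate block, 622 of 23893 genes were called higher and 706 lower with vehicle. Of the 350 genes called higher with topotecan, the block called 74 higher and 50 lower with vehicle. Of the 246 called lower with topotecan, it called 67 lower and 7 higher with vehicle. Without the block, the genes called lower by deletion under both conditions were 5, Top1, Slc7a3, Cd24a, Omg and Gpr4, and Fam212b was called higher under both. Cd24a, a surface glycoprotein of young neurons, stood at 279, 291 and 173 CPM in WT-Topot and 83.2, 52.1 and 34.5 CPM in Top1 cKO-Topot. Between Top1 cKO-Topot and Top1 cKO-Veh, Cadm2, a synaptic adhesion gene, and Syt1, the calcium sensor of vesicle release, were called lower (0.00837%), by log2 −2.19 ± 0.21 (SE) and −1.34 ± 0.16 (SE), or 415 genes lower (1.74%) and 205 higher (0.858%) with the replicate block. These genes and those shared by both conditions are named because their counts are small, after their values were seen.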

How the data were processed

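The samples are the 6 libraries of Top1 cKO-Topot and WT-Topot, with WT-Veh and Top1 cKO-Veh as background, grouped by their labels. Poly(A) RNA was sequenced as paired-end 50 bp reads. The authors used TagDust to filter reads and TopHat with default settings for alignment to mm9, left out rRNA reads and deposited raw counts over RefSeq exons by gene symbol. The counting program, its strand setting and the versions are not given in the sources used here.

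From these counts, edgeR 4.0.16 (R 4.3.3) fitted each pair of groups with TMM scaling, no gene filter and the quasi-likelihood test, and p-values were adjusted by Benjamini-Hochberg over 23893 genes at an FDR of 0.01. The interaction was fitted on 12 libraries. Alternatives were the replicate block, filterByExpr, RLE, the exact test, an FDR of 0.05, DESeq2 1.42.0, a fit of all 12 libraries and leaving out each library. The tests were tested on simulated data first. Spans come from GENCODE vM1 on mm9 (21013 symbols matched directly, 1080 by synonym, 1800 not). Replicates are separate cultures per the study. Deviations from group means correlated at 0.261 to 0.485 in 18 same-numbered pairs of libraries and at −0.384 to −0.0494 in 36 other pairs. The pairing rests on these values, since what a number stands for is not stated.

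Genes were named by rule: the 10 largest rises and 10 largest falls past the threshold with at least 5 CPM in a group and no overlap, up to 4 members of each list with the smallest p, up to 6 genes of each class with the largest fall in WT-Topot and at least 10 CPM in WT-Veh, and the 5 largest interactions of each sign. Members and lists were chosen with earlier results of these data known. A result on the inhibitory receptor list is not reported here.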

Additional observations from a re-analysis of the deposited data

Results flagged for a closer look

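For 26 of the named genes the effect of deletion with topotecan differed from its effect with vehicle, by the interaction term of edgeR's quasi-likelihood fit on all 12 libraries at an FDR of 0.01. The values are differences of 2 log2 fold changes, Top1 cKO against WT with topotecan minus the same with vehicle. Over all genes, 95 (0.398%) passed with a positive value and 9 (0.0377%) with a negative value. Genes were named partly for the 5 largest interactions of each sign and partly for changes in libraries that enter the same term. The count of 26 is therefore partly set by that choice. Activity-induced genes had positive values, Ptgs2 (4.58), Nr4a1 (4.17), Npas4 (4.11), Bdnf (3.72), Nptx2 (3.37), Fos (2.91), Vgf (2.83), Egr4 (2.58) and Egr1 (2.16). Genes over 100 kb also had positive values, Nell1 (4.46), Ctnna2 (3.31), Kcnma1 (3.24), Cdh13 (3.09), Dscam (2.91), Nrg3 (2.69), Grid1 (2.64), Nrxn3 (2.34), Ephb1 (2.003) and Negr1 (1.72). So did Mir8115 (3.87) and Atf4 (1.91). Negative values were those of Sec14l3 (−3.75), Ccdc74a (−2.83), Syt17 (−2.55), Cdhr1 (−2.01) and Cdo1 (−1.90). Cdo1, which encodes cysteine dioxygenase, stood at 57.3, 50.7 and 64.7 CPM in WT-Topot and 17.9, 25.6 and 26.2 CPM in Top1 cKO-Topot, and Syt17, a synaptotagmin gene, at 42.2, 48.9 and 56.5 CPM and 24.3, 23.9 and 15.3 CPM, and in vehicle they stood at 24.0, 15.3 and 18.4 CPM and 8.19, 11.4 and 13.2 CPM in WT. No group had 4 or more libraries, so single libraries were not tested as outliers.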

How the results depend on the processing

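The difference in the long gene shift kept its sign under each of its 13 alternatives, from 0.28 with a limit of 50 kb to 0.61 with 200 kb, and from 0.36 to 0.54 without a single library. Counts of genes called higher and lower were 659 and 555 at an FDR of 0.05, and 1100 and 976 with the replicate block, while 134 were lower with filterByExpr and 146 in 1 fit of 12 libraries. Without a single library they ranged from 232 to 543 and from 157 to 348. The class of protected genes held 91 with filterByExpr, 380 with the replicate block and 110 to 176 without a library. The partly protected class held 30 with DESeq2, 55 at an FDR of 0.05, 23 with the exact test, 111 with the block and 7 to 33 without a library. Genes that stayed low numbered 252 at an FDR of 0.05, 408 with the block and 132 to 291, and undecided genes 296 with the block and 119 to 253. Positive and negative interactions were 230 and 63 with DESeq2, 211 and 72 at an FDR of 0.05, 583 and 365 with the block and 48 to 123 and 2 to 24 without a library, and 58 were positive with filterByExpr. Of 493 members of the functional lists, 72 were called higher in the main fit, 143 with the block and 50 to 97 without a library. Members called lower were 14 in the main fit, 30 with the block, 22 at an FDR of 0.05, 8 with filterByExpr and 9 to 17 without a library. Over all genes the shares called higher and lower were 1.46% and 1.03%, or 4.6% and 4.08% with the block. Apart from fewer genes tested or fewer samples, the cause of these moves was not tested. Of 44 named genes called higher and 24 called lower, 28 and 16 were called under every alternative, and all with the block. Cort and Pcdh15, which were not called, changed sign without Top1 cKO-Topot replicate 2, with log2 fold changes of −0.39 to 1.42 and −0.83 to 2.23 over the libraries left out. At 2162811 to 3493909 counts per library 3 counts are about 1 CPM, so differences between levels at or below that limit were not detectable. The median log2 fold change of expressed genes was −0.02 with TMM and −0.000322 with RLE.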
